A study of Mus musculus with 88 samples.

Results

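The 33 genes described here are astrocyte identity genes: Gfap, S100b, Gja1, Gjb6, Aqp4, Mlc1, Hepacam, Slc4a4, Atp1b2, Slc7a10, Slc39a12, Slc15a2, Aldh1l1, Aldoc, Acsbg1, Ppp1r3c, Plpp3, Pla2g7, Entpd2, Fgfr3, Ntsr2, Bmpr1b, Ndrg2, Sox9, Gli3, Rfx4, Lfng, Cldn10, F3, Htra1, Sparcl1, Clu and Cst3. They were chosen by symbol, and all 33 were found among the 53749 gene IDs of the 3 tables of RNA counts. Nuclear RNA was sequenced from sorted nuclei from 2 brain regions of male C57BL/6J mice of 4 months. The regions were the medial prefrontal cortex (mPFC) and the hippocampus (HIP). NeuN+ (neuronal) and NeuN- (non-neuronal) nuclei came from naive mice kept in the home cage and from mice killed 10 minutes (CFC10) or 30 minutes (CFC30) after they entered the chamber for contextual fear conditioning (CFC) with foot shocks, with 4 libraries a group in the HIP and 3 in the mPFC. GFAP+, PU.1+, 3X- and NeuN+ nuclei of the HIP came from mice given saline or 2 mg/kg corticosterone, as a corticosterone:HBC complex, 30 minutes earlier, with 4 libraries a group. The 3X- nuclei are those negative for NeuN, GFAP and PU.1, called oligodendrocyte-enriched in the study. γH2AX is a mark of DNA double-strand breaks. Its ChIP-Seq was made in both regions from naive and CFC30 mice, with 3 replicates a group in the HIP and 4 in the mPFC. Each replicate combined tissue from 3 animals.

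Astrocytes take up transmitters and ions released by neurons, pass them and metabolites to neighbouring astrocytes through gap junctions, and surround vessels with endfeet rich in water channels. Genes of these tasks, together with the transcription factors that set astrocyte fate, mark the cell type in most RNA surveys of the brain. Astrocytes also carry the glucocorticoid receptor, which binds corticosterone, the main stress hormone of mice, and acts on transcription within minutes.

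Depth was 5935395 to 12758257 counts a library in the corticosterone table, 10561897 to 18271372 in the HIP table and 10577263 to 16392677 in the mPFC table. Levels below are counts scaled to library size, or CPM. They follow gene length and are compared only for the same gene. Levels of different genes are compared as FPKM, CPM divided by the length of the gene body in kilobases, because the reads were counted over exons and introns. Replicates 3 and 4 of HIP NeuN- naive nuclei held identical counts and were counted as 1 library, which left n = 3 in that group. GFAP+ replicate 1 stood apart in both treatments, with 1376 (saline) and 1678 (corticosterone) CPM over 12 oligodendrocyte genes against 747 to 954 in the other GFAP+ libraries.

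The astrocyte, neuronal, oligodendrocyte and microglial genes followed the sort. The 33 genes together reached 11600 to 14370 CPM in the 4 saline GFAP+ libraries, 1182 to 1391 in 3X-, 1083 to 1312 in PU.1+ and 650 to 701 in NeuN+ libraries. The 12 oligodendrocyte genes reached 11090 to 11760 CPM in saline 3X- nuclei, and the 12 microglial genes 8607 to 9297 CPM in saline PU.1+ nuclei against 52.7 to 61.9 in GFAP+. GFAP+ nuclei were not free of neuronal RNA: 12 neuronal genes summed to 3804 to 5316 CPM there, against 18370 to 18820 in saline NeuN+ nuclei. In saline PU.1+ nuclei they summed to 2659 to 3965 CPM. Vessel genes were highest on average in GFAP+ nuclei. The 8 endothelial genes summed to 227 to 772 CPM in saline GFAP+, 278 to 371 in PU.1+ and 123 to 271 in 3X- nuclei. The 7 mural genes summed to 222 to 358, 67.5 to 101 and 71.9 to 114 CPM. In bulk nuclei, fewer astrocyte nuclei and less astrocyte RNA per nucleus cannot be told apart.

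**Figure D1:**
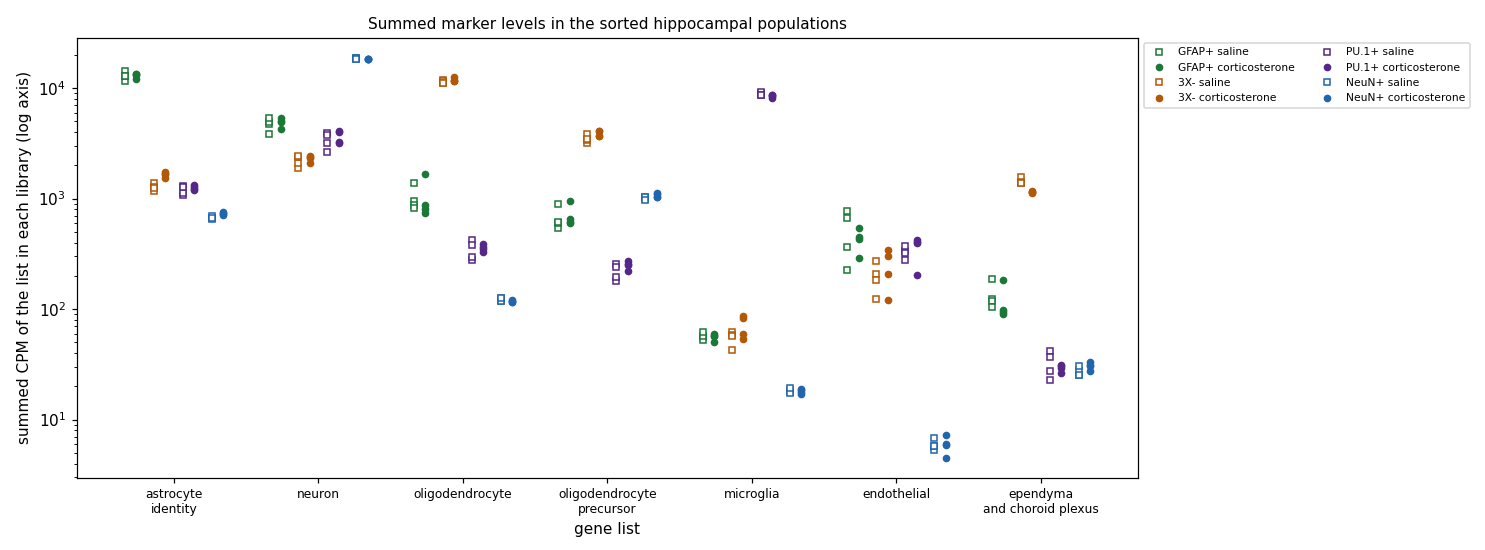
Summed CPM of 7 gene lists (log axis) in each hippocampal library of the corticosterone experiment, with open squares for saline and filled circles for corticosterone, 4 libraries a group. The astrocyte identity genes were highest in GFAP+ libraries (11600 to 14370 CPM with saline), and the neuronal, oligodendrocyte and microglial lists were highest in NeuN+, 3X- and PU.1+ libraries.

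Where the genes were expressed was asked first, in the saline groups. All 33 members were higher in GFAP+ than in NeuN+ nuclei (edgeR quasi-likelihood test, Benjamini-Hochberg adjusted p under 0.05 over all 18535 genes tested, of which 60.8% were called in either direction and 30.4% higher). The median difference of the members was 6.81 on the log2 scale, against 0 over all genes. Against PU.1+ nuclei 32 members were higher and 1 was lower (64.0% of all genes called, 34.4% higher and 29.6% lower), with a median of 4.70. Against 3X- nuclei all 33 were higher (51.6% called, 26.5% higher and 25.1% lower), with a median of 4.39. Gfap encodes the antigen used for the sort, so its level is no independent check of the gate. The 33 genes were chosen as astrocyte markers, with earlier results of these data known. A gene was tested here if any group of the table passed the level filter, and in NeuN+ nuclei alone 9 members passed it. These counts therefore describe where the genes lie and test neither the list nor the sort.

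Per length, the members spanned a wide range within GFAP+ nuclei. Atp1b2, the beta subunit of the astrocytic sodium pump, had the highest level at 62.6 ± 6.13 FPKM (SD, n = 4), close to Cst3, a secreted protease inhibitor, at 60.7 ± 8.74, and above Ntsr2, a neurotensin receptor, at 50.6 ± 4.53. Cldn10, a claudin, was lowest at 0.917 ± 0.0733 FPKM, below Bmpr1b, a bone morphogenetic protein receptor, at 1.55 ± 0.134. The bodies of Atp1b2, Cst3 and Ntsr2 span 6207, 3971 and 6846 bp, and those of Cldn10 and Bmpr1b 87582 and 332290 bp. The part of body length, introns included, in this order was not tested. Gfap itself, the intermediate filament of astrocytes, stood at 13.0 ± 1.40 FPKM, within the spread of the gap junction gene Gjb6 at 13.8 ± 2.50. The whole body of Gfap is covered by the lincRNA Gm26668 on the opposite strand, and with the strand setting of the counts not given in the sources used here, reads of the 2 genes may not be separable in any Gfap level.

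**Figure D2:**
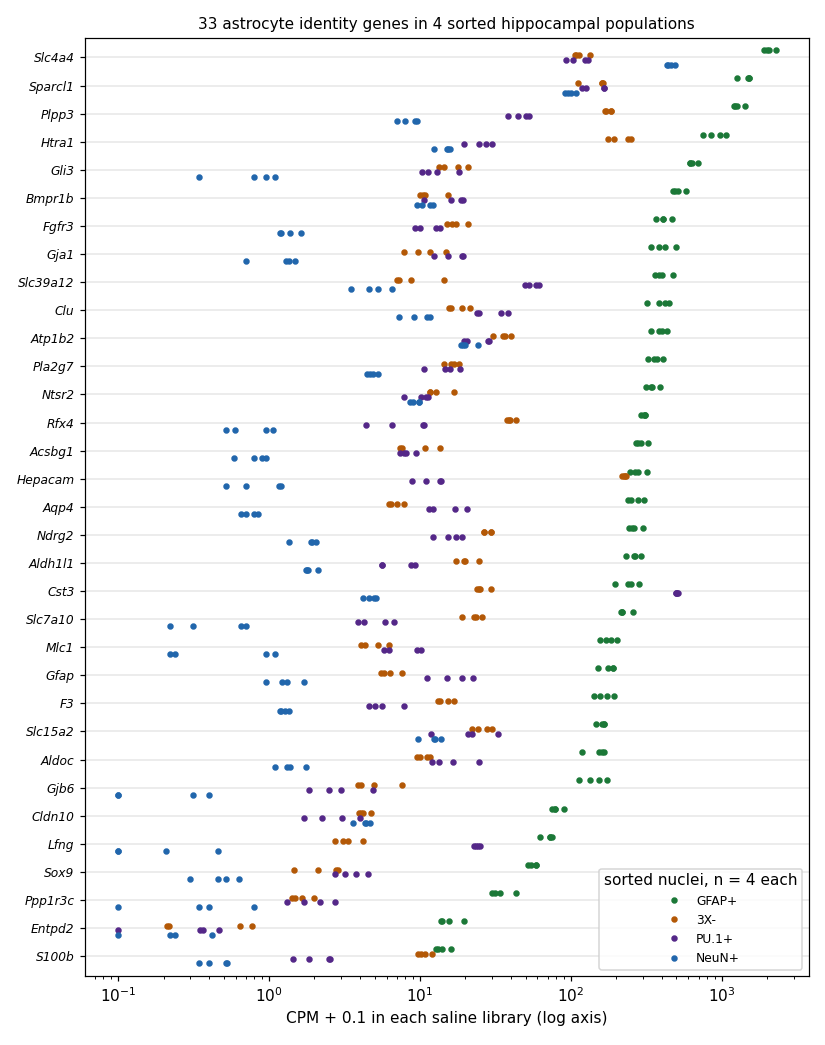
CPM plus 0.1 of each of the 33 genes (log axis) in every saline library of the 4 sorted populations, ordered by the GFAP+ mean, 1 point per library. GFAP+ points lie above those of the other populations for 32 genes, and for Cst3 the PU.1+ points (mean 503 CPM) lie above the GFAP+ points (mean 241 CPM).

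Among the transporters, Slc4a4, the sodium bicarbonate cotransporter, was at 2049 ± 157 CPM (SD, n = 4) in GFAP+ and 454 CPM in NeuN+ nuclei, where it made up 67.6% of the summed CPM of the 33 genes, a share that also follows gene length. Its GFAP+ to NeuN+ difference of 1.83 (log2) was the smallest of the members. The pattern held in the independent HIP table, where Slc4a4 was at 1039 CPM in naive NeuN- and 510 CPM in naive NeuN+ nuclei (log2 difference 0.56, smallest of the 33). In the mPFC table the levels were 810 and 153 CPM, a log2 difference of 1.89.

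The gap junction connexins lay at the other end. Gjb6 was 9.49 (log2) higher in GFAP+ than in NeuN+ nuclei, the largest difference of the members, with 113 to 173 CPM in the GFAP+ libraries and a NeuN+ mean of 0.128 CPM. Gja1, the main astrocytic connexin, stood at 410 ± 67.9 CPM in GFAP+ and 1.11 CPM in NeuN+ nuclei. Among the water and ion balance proteins of the endfoot, Aqp4, the water channel, was 8.29 and Mlc1 7.90 higher in GFAP+ than in NeuN+ nuclei.

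Hepacam, a cell adhesion protein that binds Mlc1, and S100b, a calcium-binding protein, were nearly as high in 3X- as in GFAP+ nuclei. Hepacam was at 225 CPM in 3X- and 276 ± 30.8 CPM in GFAP+ nuclei, a log2 difference of 0.23, and S100b at 10.6 and 13.9 ± 1.46 CPM, a difference of 0.32. Leaving out replicate 2 or 3 of every group ended the call of Hepacam (adjusted p up to 0.0993), and leaving out replicate 2, 3 or 4 ended that of S100b (up to 0.224). Dip2a overlaps 23.7% of S100b on the opposite strand and was lower in GFAP+ than in 3X- nuclei by 2.37 on the log2 scale, and its part in the S100b counts was not tested. The remaining 31 members differed by 2.02 (Htra1, a secreted serine protease) to 5.43 (Bmpr1b).

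Cst3 was the exception among glia. It was at 503 CPM in PU.1+ nuclei and 241 ± 34.7 CPM in GFAP+ nuclei, a log2 difference of -0.91 that kept its sign and call in all 9 alternative analyses (-1.06 to -0.84), and it made up 41.9% of the members' sum in PU.1+ nuclei. Lfng, the glycosyltransferase that modifies Notch receptors, was also high in PU.1+ nuclei, at 23.8 CPM against 70.7 in GFAP+ and 3.24 in 3X- nuclei. By mean CPM the second population was 3X- for 19 members, PU.1+ for 11 and NeuN+ for 2 (Slc4a4 and Cldn10), beside Cst3.

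The naive fractions of the other tables gave the same side for every member. All 33 were higher in NeuN- than in NeuN+ nuclei in the HIP (70.7% of 16048 genes called, 37.0% higher and 33.8% lower) and in the mPFC (69.5% of 16559, 35.4% higher and 34.1% lower), with medians of 5.07 and 5.81 on the log2 scale. For genes chosen as astrocyte markers this too is a description and no test of the list. The largest difference was that of Slc7a10, a neutral amino acid transporter, in both regions (7.79 and 9.70). Gfap was at 76.7 CPM in HIP NeuN- and 14.0 CPM in mPFC NeuN- nuclei, whereas Sox9, the glial transcription factor, was at 23.9 and 28.8. The regions were prepared with different versions of the library kit and are in separate tables, so region and kit cannot be told apart.

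The next question was what 30 minutes of corticosterone did to the genes in astrocyte nuclei. In GFAP+ nuclei 5 of 33 members passed the test, 3 higher (Htra1, Gjb6 and Lfng) and 2 lower (Plpp3 and Sox9), where 3.12% of 14527 genes were called, 2.14% higher and 0.977% lower. The remaining 28 had log2 changes from -0.35 (S100b) to 0.27 (F3, the coagulation initiator tissue factor), with a median standard error of 0.08. The median of the 33 was 0.03 against 0 over all genes, and their sum overlapped between saline (11600 to 14370 CPM) and corticosterone (12150 to 13470 CPM). For 3 members every corticosterone library lay above every saline library, and for 5 every one lay below. The share of all genes without overlap was not computed.

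Htra1 rose most. It was at 753, 1059, 969 and 844 CPM in the saline and 1355, 1397, 1389 and 1421 CPM in the corticosterone libraries. Every corticosterone library lay above every saline library, with a log2 change of 0.66 (SE 0.10, adjusted p = 0.00137, edgeR). The call stood in each of the 8 fits with 1 library left out. The body of Htra1 lies wholly inside the annotated body of Fgfr2 on the opposite strand, and the strand setting of the counts is not given in the sources used here. Fgfr2, annotated over 2960900 bp, was under the level filter in GFAP+ nuclei and had a change of -0.18 (SE 0.07, adjusted p = 0.144, edgeR) in 3X- nuclei. The filter divides by body length, so a gene this long can draw many reads and stay under it. In the fit of all populations, the corticosterone effect on Fgfr2 in GFAP+ minus 3X- nuclei was 0.03 (SE 0.09). The part of Fgfr2 reads in the Htra1 result was not tested.

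Gjb6 was at 113, 173, 152 and 133 CPM with saline and at 207, 219, 196 and 208 CPM with corticosterone (log2 change 0.58, SE 0.12, adjusted p = 0.032, edgeR). The groups did not overlap. Its partner connexin Gja1 was not called in GFAP+ nuclei. Lfng was at 62.5, 75.2, 72.4 and 72.9 CPM and at 85.0, 124, 87.6 and 102 CPM (0.54, SE 0.12, adjusted p = 0.0368), again without overlap. The margin of both calls was thin: Gjb6 was lost in 6 of 8 fits with 1 library left out (saline 3 or 4 or any corticosterone library, adjusted p up to 0.122) and Lfng in 5 of 8 (any saline library or corticosterone 4, up to 0.115).

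Plpp3, a membrane phosphatase that breaks down lysophosphatidic acid outside the cell, fell. It was at 1202, 1432, 1216 and 1265 CPM with saline and at 852, 923, 1002 and 995 CPM with corticosterone (log2 change -0.39, SE 0.07, adjusted p = 0.0063, edgeR), and the call stood in all 8 fits with 1 library left out. Sox9 fell from 51.9, 58.6, 54.6 and 58.3 CPM to 38.0, 43.2, 42.4 and 47.7 CPM (-0.34, SE 0.07, adjusted p = 0.0157), and was lost without saline replicate 4 (up to 0.0632). Neither gene overlapped between groups. With replicate 1 of both treatments left out the same 5 members were called, with log2 changes of 0.58 (Htra1), 0.48 (Gjb6), 0.53 (Lfng), -0.39 (Plpp3) and -0.33 (Sox9).

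**Figure D3:**
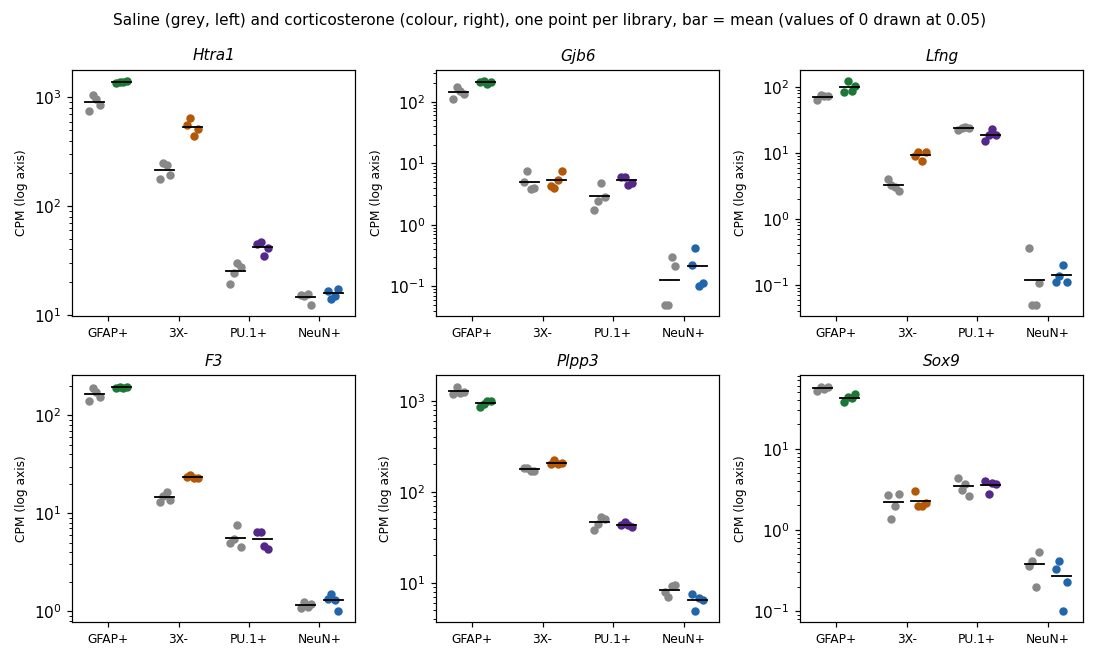
CPM (log axis) of 6 members in each library of 4 hippocampal populations after saline (grey) or corticosterone (colour), 4 libraries a group, bars at the mean and values of 0 drawn at 0.05. Htra1 lies higher after corticosterone in GFAP+, 3X- and PU.1+ nuclei, Lfng in GFAP+ and 3X- nuclei, F3 in 3X- nuclei, and Plpp3 lies lower in GFAP+ and higher in 3X- nuclei.

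Changes in the other glial fractions were asked next, at much lower levels of these genes. In 3X- nuclei 26 members were tested and 6 were called, 5 higher and 1 lower (7.48% of 14587 genes called, 4.96% higher and 2.52% lower). Lfng rose from 4.07, 3.25, 2.995 and 2.65 CPM to 8.93, 10.5, 7.53 and 10.2 CPM (log2 change 1.54, SE 0.17, adjusted p = 4.33e-09, edgeR), which rests on 24 to 35 counts a saline library and 53 to 96 a corticosterone library. Htra1 rose from 176, 249, 240 and 194 CPM to 555, 646, 438 and 515 CPM (1.36, SE 0.16, adjusted p = 0.00103). F3 rose from 13.2, 15.2, 16.6 and 13.6 CPM to 23.6, 24.5, 22.9 and 22.7 CPM (0.72, SE 0.11, adjusted p = 1.68e-06). For these 3 genes no library of a group reached into the other, and each call stood in all 8 fits with 1 library left out.

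The other 3 calls in 3X- nuclei were smaller. Plpp3 was at 184, 184, 168 and 170 CPM with saline and at 201, 226, 200 and 206 CPM with corticosterone (0.28, SE 0.07, adjusted p = 0.00679, edgeR). Fgfr3, a fibroblast growth factor receptor, was at 15.0 to 20.7 and 19.5 to 22.7 CPM (0.34, SE 0.11, adjusted p = 0.0388), and the groups overlapped. S100b was at 9.59 to 11.99 and 6.43 to 8.69 CPM (-0.47, SE 0.14, adjusted p = 0.0255). S100b lost its call without saline replicate 1 or 3 or corticosterone replicate 1 or 3 (adjusted p up to 0.14), and Fgfr3 without saline replicate 1, 3 or 4 or corticosterone replicate 3 (up to 0.164). DESeq2 called neither S100b (adjusted p = 0.115) nor Fgfr3 (0.129), and without the filter on low values edgeR called neither Fgfr3 (0.152) nor Plpp3 (0.168).

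The sum of the 33 genes in 3X- nuclei was 1182 to 1391 CPM with saline and 1542 to 1747 CPM with corticosterone. Without Htra1 the sums overlapped, at 1007 to 1142 and 1101 to 1149 CPM. The 36 other astrocyte-enriched genes also moved, from 4934 to 5590 CPM to 5620 to 5864 CPM, and 8 ependymal and choroid plexus genes went from 1375 to 1565 CPM down to 1114 to 1167 CPM. Of 7 oligodendrocyte precursor genes 4 were called higher (Olig2, Vcan, Pdgfra and Cspg4), against 4.96% of all genes, with sums of 3155 to 3847 and 3699 to 4087 CPM. Of 12 oligodendrocyte genes 5 were called lower (Ugt8a, Opalin, Aspa, Ermn and Mog), against 2.52% of all genes, and 1 higher (Mobp). Their sums were 11090 to 11760 and 11540 to 12630 CPM. The part of these lists in the results was not tested. With libraries scaled to the other astrocyte-enriched genes, an alternative chosen after seeing the data that raised the calls over all genes from 1091 to 2962 of 14587, Lfng, Htra1, F3 and S100b were called and Plpp3 (0.10, adjusted p = 0.432, edgeR) and Fgfr3 (0.361) were not.

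In PU.1+ nuclei 26 members were tested and 2 were higher, none lower (8.31% of 14279 genes called, 4.63% higher and 3.68% lower). Htra1 was at 19.3, 24.4, 30.1 and 27.4 CPM with saline and at 44.5, 46.3, 34.8 and 41.3 CPM with corticosterone (log2 change 0.75, SE 0.13, adjusted p = 0.00267, edgeR), without overlap and with the call standing in all 8 fits with 1 library left out. Gjb6 was at 1.74, 2.40, 4.75 and 2.88 CPM and at 6.00, 6.09, 4.48 and 4.86 CPM (0.88, SE 0.24, adjusted p = 0.0243), from 13 to 53 counts a library. The groups of Gjb6 overlapped, and its call was lost in 5 of 8 such fits (saline replicate 1, 2 or 4 or corticosterone replicate 1 or 2, up to 0.0962). With the replicate number as a block, only Htra1 was called there. In the same nuclei the other astrocyte-enriched genes summed to 3647 to 3980 CPM with saline and 4061 to 4384 CPM with corticosterone, and their part in the Gjb6 and Htra1 results was not tested.

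In NeuN+ nuclei 9 members were tested and 1 was called (2.13% of 12664 genes, 1.30% higher). Sparcl1, a secreted matrix protein that promotes synapse formation and is also expressed by neurons, was at 91.0, 100.1, 94.8 and 107.9 CPM with saline and at 117, 129, 114 and 127 CPM with corticosterone (log2 change 0.32, SE 0.05, adjusted p = 1.14e-06, edgeR). The groups did not overlap, and the call stood in each fit with 1 library left out. Blocking on the replicate number added a rise of Slc4a4.

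Differences of the corticosterone effect between populations were tested directly. The effect was smaller in GFAP+ than in 3X- nuclei for 3 members (1.32% of 18535 genes called, 0.912% in that direction): Lfng by 0.99 on the log2 scale (SE 0.21, adjusted p = 0.00669, edgeR), Htra1 by 0.69 (SE 0.17, adjusted p = 0.0257) and Plpp3 by 0.67 (SE 0.11, adjusted p = 6.77e-05). Plpp3 is the member that went down in one population and up in the other. Against PU.1+ nuclei the effect on Lfng was larger in GFAP+ nuclei by 0.84 (SE 0.15, adjusted p = 0.000259), the only member called (2.14% of genes). In PU.1+ nuclei Lfng itself was at 23.8 CPM and not called (-0.30, adjusted p = 0.0806). Against NeuN+ nuclei no member was called by edgeR or DESeq2 (0.507% of genes by edgeR), and 2 had an unadjusted p under 0.05. Without replicate 4 of every group the Lfng difference to 3X- was lost (adjusted p = 0.286), and the Htra1 difference was lost without replicate 1, 2 or 4 (up to 0.22).

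Sequences near the starts of the 9 members called after corticosterone in any population were read for the motif of the glucocorticoid receptor. The receptor binds as a dimer to an inverted repeat. The motif was ACANNNTGT with, on its 5′ side, a G and any base and, on its 3′ side, any base and a C, which reads the same on both strands. Motif and window were chosen after seeing the data, and the search ran within 10 kb on either side of the annotated gene start (GRCm38.p6, GENCODE vM21 starts). A match is a description and no evidence of binding. Among all 14527 genes tested in GFAP+ nuclei, 28.7% held at least 1 match, and among the 33 members 12 did (36.4%). Of the 9 called members 6 held a match, which are shown 5′ to 3′ on the plus strand with the motif in capitals and 6 flanking bases on each side.
Htra1, 506 bp upstream, chr7:130935593-130935617: gaaaaaGTACAAACTGTACaaagcc
Lfng, 5817 bp upstream, chr5:140601491-140601515: ggagatGAACAGGCTGTTCttgttt
F3, 6699 bp upstream, chr3:121716826-121716850: acttctGAACAACTTGTTCaactgc
F3, 2098 bp downstream, chr3:121725623-121725647: acacagGCACATAGTGTGCtttggg
Fgfr3, 4501 bp upstream, chr5:33717161-33717185: ccctgtGCACATGCTGTTCctaggg
Fgfr3, 6978 bp downstream, chr5:33728640-33728664: aagagtGGACAAGGTGTCCtccagt
Sox9, 6616 bp downstream, chr11:112788828-112788852: tgggaaGTACACTTTGTTCtccccc
Sparcl1, 7407 bp upstream, chr5:104121128-104121152: cacctaGGACATCATGTCCccttcc
Sparcl1, 4998 bp downstream, chr5:104108723-104108747: gactgtGCACAAGATGTTCacattt
Of all these, the match closest to a start was that of Htra1. Gjb6, Plpp3 and S100b held none. Of the 5 members called in GFAP+ nuclei 3 held a match. The share of 28.7% is over genes tested in GFAP+ nuclei, whereas the 9 members were called over 4 populations. The looser ACANNNTGT alone, also the same on both strands and contained in the longer motif, was searched in 300 bases around RefSeq starts (250 before and 50 after, GRCm38.p6), for which 28 members had a window. It was in none of the windows of Htra1, Gjb6, Lfng and Plpp3, in that of 1 member (Cldn10, not called), and in 6.85% of all 32851 windows. The windows of Htra1 and Gjb6, which rose both in GFAP+ nuclei and in NeuN- nuclei at CFC30, are given on the strand of the gene because they differ in base composition.
Htra1, plus strand, chr7:130935953-130936252: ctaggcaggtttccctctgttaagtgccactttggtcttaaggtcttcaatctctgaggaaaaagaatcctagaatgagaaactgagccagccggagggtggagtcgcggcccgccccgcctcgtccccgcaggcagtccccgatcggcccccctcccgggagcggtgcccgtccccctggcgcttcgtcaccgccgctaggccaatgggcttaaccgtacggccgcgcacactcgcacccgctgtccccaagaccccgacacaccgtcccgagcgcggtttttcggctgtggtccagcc
Gjb6, minus strand, chr14:57133562-57133861: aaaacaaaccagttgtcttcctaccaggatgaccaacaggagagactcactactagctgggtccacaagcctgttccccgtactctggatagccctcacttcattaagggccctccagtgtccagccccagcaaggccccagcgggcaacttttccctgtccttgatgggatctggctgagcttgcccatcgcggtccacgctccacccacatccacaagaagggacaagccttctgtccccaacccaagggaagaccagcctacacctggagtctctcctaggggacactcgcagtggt
The Htra1 window had 65% G and C with 28 CpG, and the Gjb6 window 57.3% with 6 CpG, against a median of 52.7% G and C over all windows.

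Fear conditioning was then examined in NeuN- nuclei, in which astrocytes are a part. In the HIP no member was called at 10 minutes by edgeR or DESeq2 (0.426% of 14802 genes called by edgeR), and 2 had an unadjusted p under 0.05. At 30 minutes 2 were higher and none lower (2.63% called, 1.28% higher and 1.34% lower). Htra1 was at 320, 334 and 380 CPM in naive, and at 469, 591, 476 and 500 CPM in CFC30 libraries (log2 change 0.56, SE 0.10, adjusted p = 0.00734, edgeR). Fgfr2, whose annotated body holds that of Htra1, had a change of -0.06 (SE 0.11), and its part in the Htra1 counts was not tested. Gjb6 was at 45.4, 48.1 and 49.7 CPM and at 67.4, 63.9, 63.8 and 65.6 CPM (0.45, SE 0.09, adjusted p = 0.0137).

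Neither Htra1 nor Gjb6 overlapped between the groups, and of all 33 members 5 lay wholly above and 4 wholly below naive. The share over all genes was not computed, so these counts are a description only. The other 31 members ran from -0.28 (Cldn10) to 0.36 (Ppp1r3c). Htra1 lost its call without naive replicate 1 (adjusted p = 0.0509), and Gjb6 without naive replicate 1, 2 or 3 or CFC30 replicate 1 (up to 0.0844). With the replicate number as a block 5 members were called, as Cldn10, Pla2g7 and Plpp3 were added on the lower side. The summed level of the 33 genes overlapped, at 5865 to 6059 CPM in naive and 5713 to 6052 CPM in CFC30 libraries. The 12 oligodendrocyte genes were at 5617 to 5986 CPM in naive and 6010 to 6496 CPM in CFC30 libraries, and 8 endothelial genes were at 617 and 618 CPM in CFC30 replicates 1 and 2, above the naive range of 298 to 464. Their part in the Htra1 and Gjb6 results was not tested.

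In the mPFC 1 member was called at 10 minutes (2.21% of 14866 genes, 0.908% higher and 1.30% lower). Ppp1r3c, which targets a phosphatase to glycogen, was at 9.38, 9.71 and 8.04 CPM in naive and at 17.1, 14.7 and 14.8 CPM in CFC10 libraries (log2 change 0.78, SE 0.12, adjusted p = 0.00193, edgeR). It was still higher at 30 minutes, at 17.0, 15.7 and 16.1 CPM (0.87, SE 0.12, adjusted p = 0.000126). Both calls stood in all 6 fits with 1 library left out. The 2 comparisons share the naive libraries. In the same libraries the oligodendrocyte genes summed to 5566 to 6005 CPM in naive and 6602 to 6842 CPM in CFC10 (4 of 12 called higher), the microglial genes to 1619 to 1665 and 1246 to 1430 CPM (3 of 12 called lower), and 2 of 7 oligodendrocyte precursor genes were called lower. Their part in the Ppp1r3c result was not tested.

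At 30 minutes 8 members were called in the mPFC, 5 higher and 3 lower (6.46% of genes called, 2.95% higher and 3.51% lower), with a median of -0.03 over the 33 and 0 over all genes. Rfx4, a transcription factor of the astrocyte lineage, rose from 207, 207 and 185 CPM to 308, 334 and 284 CPM (0.65, SE 0.07, adjusted p = 5.49e-06, edgeR). Mlc1 rose from 61.1, 68.1 and 58.1 CPM to 91.8, 104 and 97.6 CPM (0.68, SE 0.08, adjusted p = 2.77e-05). Both calls held with any 1 library left out, and neither gene was called at 10 minutes. In HIP NeuN- nuclei neither was called at any time.

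Htra1 and Gjb6 rose here as well. Htra1 was at 385, 411 and 428 CPM in naive and at 581, 809 and 632 CPM in CFC30 libraries (0.75, SE 0.15, adjusted p = 0.0306, edgeR). The overlapping Fgfr2 had a change of 0.16 (SE 0.11), and its part in the Htra1 counts was not tested. Gjb6 was at 53.1, 67.7 and 60.0 CPM and at 79.1, 87.6 and 94.1 CPM (0.56, SE 0.14, adjusted p = 0.0474). The groups did not overlap, yet Gjb6 lost its call in all 6 fits with 1 library left out (adjusted p up to 0.148), and Htra1 in 4 (any naive library or CFC30 replicate 3, up to 0.109). Blocking on the replicate number also ended both calls. CFC30 replicate 2, which had the highest Htra1, had 606 CPM over 8 endothelial genes against 196 and 284 in the other CFC30 libraries.

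The 3 that fell in the mPFC were S100b, from 11.98, 14.7 and 13.1 CPM to 10.7, 8.97 and 7.58 CPM (-0.52, SE 0.14, adjusted p = 0.0268, edgeR), Pla2g7, from 139, 152 and 116 CPM to 97.1, 102 and 115 CPM (-0.34, SE 0.09, adjusted p = 0.0268), and Plpp3, from 725, 703 and 645 CPM to 548, 537 and 620 CPM (-0.25, SE 0.07, adjusted p = 0.0322). Pla2g7 encodes a phospholipase that inactivates platelet-activating factor. None of the 3 overlapped between groups, and each lost its call in 4 of 6 fits with 1 library left out (adjusted p up to 0.14 for S100b, 0.145 for Pla2g7 and 0.187 for Plpp3). Of all 33 members 6 lay wholly above and 4 wholly below naive here, and the share over all genes was not computed. S100b was not called by DESeq2 (adjusted p = 0.065), and Pla2g7 was not called with the replicate number as a block (0.0611, edgeR). The libraries that ended a call were naive 2 or 3 or CFC30 2 or 3 for S100b, and naive 1 or 2 or CFC30 1 or 2 for Pla2g7 and for Plpp3.

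The members' sum did not separate naive (5913 to 6386 CPM) from CFC30 libraries (5954 to 6617 CPM) in the mPFC. The microglial genes did, at 1619 to 1665 CPM in naive and 1246 to 1480 CPM in CFC30 libraries, and so did the oligodendrocyte genes, at 5566 to 6005 and 6151 to 6769 CPM. Their part in these results was not tested. With libraries scaled to the other astrocyte-enriched genes, chosen after seeing the data, all 8 members were called again in the same direction, and in the HIP Htra1 and Gjb6 were.

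**Figure D4:**
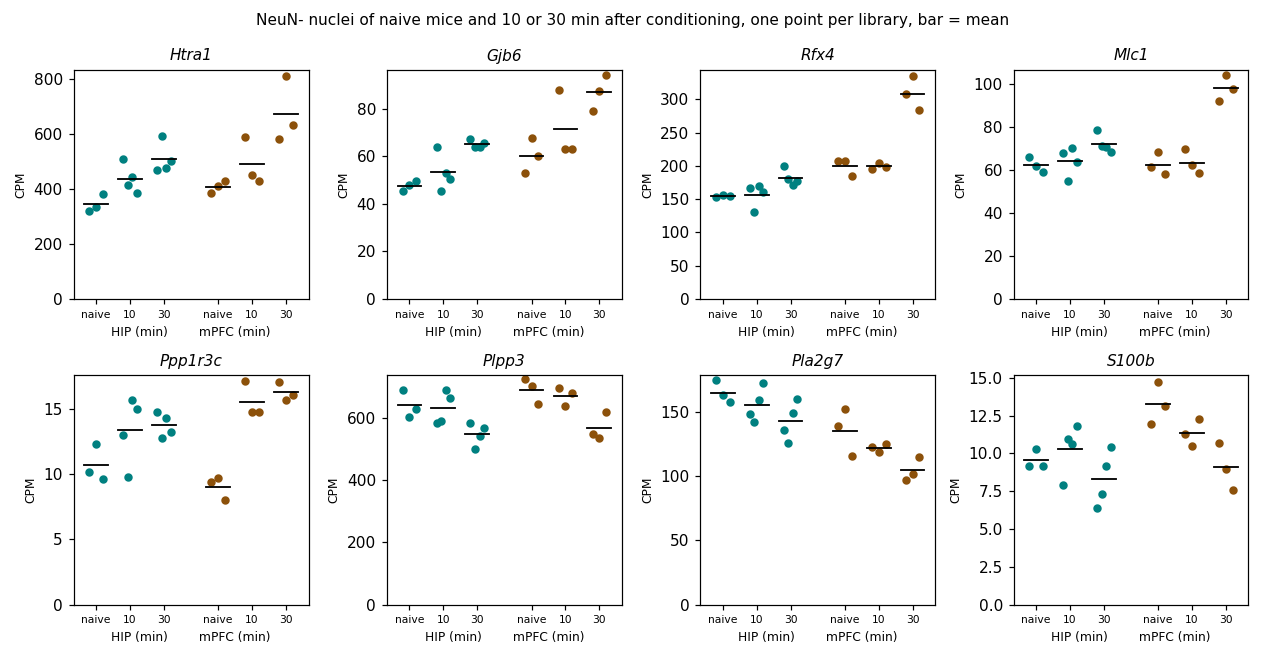
CPM of 8 members in each NeuN- library of the HIP (3 naive, 4 at 10 and 4 at 30 minutes) and the mPFC (3 a group), bars at the mean. Htra1 and Gjb6 lie higher at 30 minutes in both regions, while Rfx4 and Mlc1 lie clearly apart from naive in the mPFC, where Rfx4 had 284 to 334 CPM against 185 to 207.

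In NeuN+ nuclei 10 members passed the level filter in each region. In the HIP none was called at 10 or 30 minutes by edgeR or DESeq2 (of 12429 genes edgeR called 4.95% at 10 minutes, 2.71% higher and 2.24% lower, and 8.88% at 30 minutes, 4.87% higher and 4.01% lower), with 1 and 0 at an unadjusted p under 0.05. In the mPFC Sparcl1 was called at 10 minutes (14.3% of 12987 genes called, 8.04% higher and 6.21% lower), at 107, 107 and 121 CPM in naive and 120, 131 and 128 CPM in CFC10 libraries (log2 change 0.17, SE 0.05, adjusted p = 0.0293, edgeR). The groups overlapped, and the call was lost without naive replicate 1 or 2 or CFC10 replicate 2 or 3 (up to 0.147) and by DESeq2 (0.086).

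At 30 minutes 3 of the 10 were called in mPFC NeuN+ nuclei, 1 higher and 2 lower, against 24.9% of all genes (13.3% higher and 11.7% lower). Slc4a4 fell from 162, 137 and 159 CPM to 98.4, 111 and 121 CPM (-0.46, SE 0.11, adjusted p = 0.0193, edgeR). Ntsr2 fell from 3.45, 3.90 and 2.82 CPM to 2.27, 1.71 and 2.25 CPM (-0.70, SE 0.20, adjusted p = 0.0106), and S100b rose from 0.603, 1.08 and 0.968 CPM to 2.00, 2.01 and 1.94 CPM (1.17, SE 0.34, adjusted p = 0.0138). None of the 3 overlapped between groups, and S100b rests on 7 to 33 counts a library. In the same libraries the 12 oligodendrocyte genes were at 71.9 to 93.0 CPM in naive and 124 to 189 CPM in CFC30, and the 36 other astrocyte-enriched genes at 1387 to 1493 and 1274 to 1327 CPM, with Nkain4, Slc6a11 and Grm3 called lower and Slc1a2 higher of 9 tested. The part of these lists in the S100b, Slc4a4 and Ntsr2 results was not tested. Slc4a4 was lost without naive replicate 1 or 3 or CFC30 replicate 2 (up to 0.0719), S100b without naive replicate 1 (0.0699), and Ntsr2 without naive replicate 2 or CFC30 replicate 2 (up to 0.0841) and by DESeq2 (0.0735).

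The CFC30 effect differed between fractions for 2 members in the mPFC (4.38% of 16559 genes called). The change of S100b was lower in NeuN- than in NeuN+ nuclei by 1.70 on the log2 scale (SE 0.38, adjusted p = 0.00708, edgeR), and that of Slc4a4 was higher by 0.56 (SE 0.13, adjusted p = 0.0173). Both were lost without replicate 2 or replicate 3 of every group (adjusted p up to 0.104 and 0.12). In the HIP no member was called by edgeR or DESeq2 (0.312% of 16048 genes by edgeR), and 3 had an unadjusted p under 0.05.

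**Figure D5:**
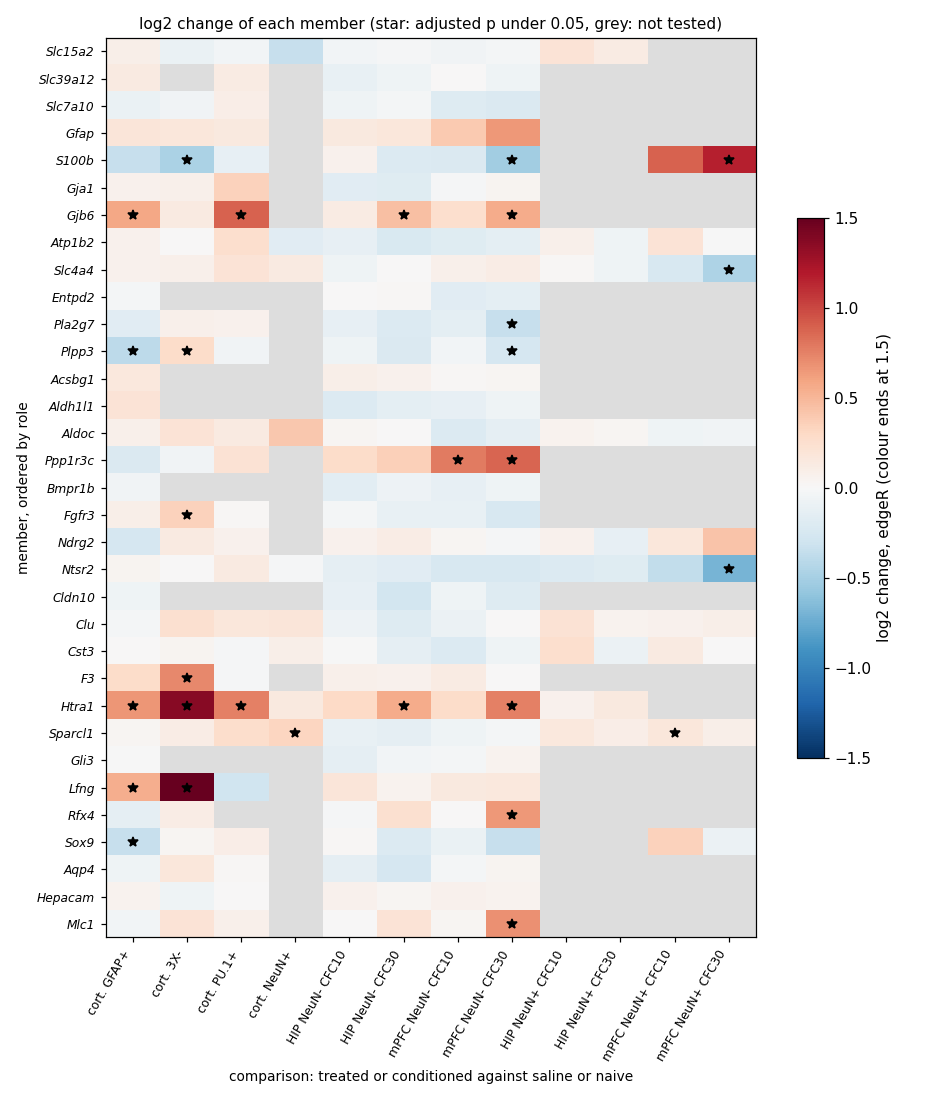
Log2 change of each member (rows, ordered by role) after corticosterone in 4 populations and 10 or 30 minutes after CFC in 2 fractions of 2 regions (columns), as colour up to 1.5 in either direction, with stars at an adjusted p under 0.05 and grey where the gene was not tested. Htra1 has stars in 5 columns and Gjb6 in 4, and most members are pale throughout.

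The members called after corticosterone in GFAP+ nuclei or after CFC in NeuN- nuclei, 5 comparisons that each called 0.426% to 6.46% of all genes, are listed here by role with no share for the pooled set. Of the secreted and surface proteins only Htra1 was called there, and Cldn10, F3, Sparcl1, Clu and Cst3 were not. Of the fate regulators Sox9, Lfng and Rfx4 were called and Gli3, a Hedgehog effector, was not. Of the endfoot proteins Mlc1 was called and Aqp4 and Hepacam were not. Gjb6 but not Gja1 was called among the connexins, Ppp1r3c alone among the metabolic enzymes with Aldh1l1, Aldoc and Acsbg1, and Plpp3 and Pla2g7 but not Entpd2 among enzymes acting outside the cell. S100b was called and Gfap was not. The 3 uptake transporters Slc7a10, Slc39a12 and Slc15a2, both ion transport genes, Slc4a4 and Atp1b2, and the 4 signalling genes Fgfr3, Ntsr2, Bmpr1b and Ndrg2 were not called in any of these 5 comparisons. A p that misses the threshold does not show that a level stayed the same.

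Other lists set the members beside the rest of the astrocyte program. Of 36 other astrocyte-enriched genes, 35 were tested in GFAP+ nuclei, where corticosterone called 4 higher (led by Fam107a, Dio2 and Mertk) and 1 lower (Ttpa). Of all genes 2.14% were higher and 0.977% lower there. In 3X- nuclei 4 of 28 were higher (4.96% of all genes), led by Fam107a, Dio2 and Daam2. In PU.1+ nuclei 4 of 19 were higher (4.63% of all genes), led by Glul, Slc1a3 and Fam107a. In NeuN- nuclei at CFC30, 4 of 35 were higher in the HIP (led by Dio2, Fam107a and Glul). In the mPFC 5 were higher, led by Dio2, Fam107a and Dbx2, and 3 lower (Slc6a11, Slc25a18 and Nkain4). The shares over all genes were 1.28% higher in the HIP, and 2.95% higher and 3.51% lower in the mPFC. Dio2, the enzyme that activates thyroid hormone, went from 77.9 to 115 CPM in GFAP+ nuclei (log2 change 0.60, SE 0.10, adjusted p = 0.00726, edgeR).

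Of 15 known glucocorticoid-induced genes, 12 were higher and none lower in GFAP+ nuclei after corticosterone (2.14% and 0.977% of all genes), led by Errfi1, Mt2 and Nfkbia. Their median log2 change was 0.97, against 0.03 for the astrocyte identity genes. The 15 genes were listed because they are known to be induced by glucocorticoids. Their rise is therefore no test, and the medians are a description. In 3X- nuclei 11 of 15 (4.96% of all genes) and in PU.1+ nuclei 11 of 13 tested (4.63%) were higher. In NeuN+ nuclei 4 of 9 were higher and 1 lower (Per1), against 1.30% and 0.837% of all genes. In NeuN- nuclei at CFC30 4 of 14 were higher in the HIP (1.28% of all genes) and 7 of 14 in the mPFC (2.95%). Reactive astrocyte genes gave no call in GFAP+ nuclei (9 tested by edgeR) and 2 higher of 6 in 3X- nuclei (Nes and Serpina3n). At CFC30 they gave 1 higher, Stat3, in NeuN- nuclei of each region (9 and 7 tested). The shares over all genes were those given above.

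γH2AX peaks touched 1 member. The peak lists used here may be incomplete, so a gene without a peak in them is not shown to lack one. The HIP list held 282 peaks, naive and CFC30 combined, and a peak of 6212 bp (GRCm38, chr2:148869217-148875428) covered 93.4% of Cst3. The mPFC list held 260 peaks, and no peak in it overlapped a member by 1 bp or more. Over the annotation 820 genes (1.53%) overlapped a HIP and 782 (1.46%) an mPFC peak. Cst3 RNA was not called after CFC in any fraction or region.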

How the data were processed

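Nuclei were fixed, sorted by FACS and their total RNA was made into libraries with a stranded pico-input kit (version 1 for the mPFC, version 2 for the HIP). For each gene the authors deposited raw counts from featureCounts over exons and introns, made after Trimmomatic, HISAT2 against GRCm38 and removal of duplicates by Picard. The strand setting and tool versions are not given in the sources used here. The deposited γH2AX peaks were called with MACS2 on merged replicates. All 73 distinct RNA libraries were used, after the identical pair was counted once. Of 53749 gene IDs, 53682 matched GENCODE vM21 and 12 members overlap another annotated gene.

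Groups came from the labels, which do not say that replicates are separate animals, so p-values measure only the spread between these samples. Fits were made in edgeR 4.0.16 (R 4.3.3, limma 3.58.1) with TMM scaling and the quasi-likelihood test. Genes with a mean gene-body FPKM above 0.2 in at least 1 group of the fit were tested. Effects of CFC were fitted in each fraction and region alone with all times together. Those of corticosterone were fitted in each population alone. Populations and fractions were compared in a fit of all groups of the table. In the paper, nuclei were gated by NeuN, GFAP and PU.1 in turn, so libraries of different populations or fractions may share animals. Except where the replicate number was a block, the fits took all libraries as independent. P-values were adjusted by Benjamini-Hochberg over all genes tested in the fit (threshold 0.05, two-sided). The level filter differs from one fit to another, so the number of members tested does too. Overlap between groups is given as a description, and the share of all genes without overlap was not computed. Differences between effects were interaction contrasts of the fits of all groups of a table. Alternatives were DESeq2 1.42.0, library totals without TMM, no filter, each library left out, the replicate number as a block and, chosen after seeing the data, scaling to other astrocyte-enriched genes and GFAP+ without replicate 1. Members called in a comparison were named, with the extremes of the others. Scripts were tested on simulated counts. Same-numbered samples deviated together only in saline GFAP+ against 3X- (r = 0.11 to 0.18 in 4 pairs), a hint from the data, and the block changed no call there. The members and lists were chosen with earlier results of these data known. Promoter windows are RefSeq's (GRCm38.p6).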

Additional observations from a re-analysis of the deposited data

Results flagged for a closer look

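In 6 cases the effect of a treatment on a member differed between 2 populations by a test of the difference itself (edgeR interaction contrast, adjusted over all genes). The log2 effect of corticosterone in GFAP+ minus that in 3X- nuclei was -0.99 for Lfng, -0.69 for Htra1 and -0.67 for Plpp3. In GFAP+ minus PU.1+ nuclei it was 0.84 for Lfng. The log2 effect of CFC30 in mPFC NeuN- minus NeuN+ nuclei was 0.56 for Slc4a4 and -1.70 for S100b. Lfng and Htra1 rose in both GFAP+ and 3X- nuclei and differ in size, whereas Plpp3 fell in the first and rose in the second, and S100b fell in NeuN- and rose in NeuN+ nuclei of the mPFC. The rise of Plpp3 in 3X- nuclei was not called when libraries were scaled to other astrocyte-enriched genes. With 1 replicate number left out, the Htra1 difference lost its call in 3 of 4 fits and the Lfng difference to 3X- in 1 of 4. The S100b and Slc4a4 differences each lost theirs in 2 of 3. Those of Plpp3 and of Lfng to PU.1+ stood. The rise of Lfng in GFAP+ nuclei lost its call in 5 of 8 fits with 1 library left out. In 43 groups of 4 libraries tested for a library far from the others in a called member or in the sum of the 33 genes, 0 had one, where chance gives about 1 in 20.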

How the results depend on the processing

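Of 229 recomputed counts of called members 186 stayed within 1.5 times the reported count. Single members were recomputed only where called and, between populations, for Cst3, Hepacam and S100b. Of these 532 values 444 kept direction and side of the threshold. No value turned its direction, which this choice of members made likely. Both totals include the comparisons between populations and fractions, where nearly all members were called in every setting. They therefore overstate how steady the calls after corticosterone and CFC were. Without a filter on low values the calls were 1 in HIP NeuN- at CFC10, 1 in HIP NeuN+ at CFC10 and 1 at CFC30, 2 in mPFC NeuN- at CFC10, 2 in mPFC NeuN+ at CFC10 and 7 at CFC30, and, after corticosterone, 5 in PU.1+ and 2 in NeuN+ nuclei. DESeq2 gave 0 in mPFC NeuN+ at CFC10. With the identical libraries as deposited, HIP NeuN- at CFC30 had 4, as calls over all genes went from 389 to 960. Scaling to other astrocyte-enriched genes, chosen after seeing the data, gave 5 in PU.1+ nuclei, as calls over all genes went from 1186 to 3727. The cause was not tested. Library totals without TMM moved the median of all genes by 0.29 in GFAP+ against NeuN+ and by 0.51 and 0.52 in naive NeuN- against NeuN+ of HIP and mPFC, with all 33 members called.

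With 1 library, or 1 replicate number, left out, calls ran from 31 to 33 in GFAP+ against 3X-, 0 to 3 in HIP NeuN- at CFC30, 3 to 8 in mPFC NeuN- at CFC30, 0 to 1 in mPFC NeuN+ at CFC10 and 1 to 3 at CFC30. After corticosterone they ran from 2 to 8 in GFAP+, 1 to 5 in PU.1+, 4 to 6 in 3X- and 1 to 2 in NeuN+ nuclei. Differences between effects ran from 1 to 3 for GFAP+ minus 3X- and 0 to 2 for mPFC NeuN- minus NeuN+. The other counts did not move.

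Outside saline GFAP+ against 3X- nuclei no comparison had every same-numbered pair correlated above 0.1, the level required here to treat the numbers as pairs. Single pairs ran from r = -0.25 to 0.38, with all 4 pairs at 0.05 to 0.36 in GFAP+ after corticosterone and all 3 at 0.07 to 0.27 in mPFC NeuN- at CFC10. The replicate block gave 5 calls in HIP NeuN- at CFC30 (689 over all genes), 1 in PU.1+ and 2 in NeuN+ nuclei after corticosterone. In mPFC NeuN- at CFC30 it gave 8, of which 5 were those reported. Members under about 1 CPM, as several are in NeuN+ nuclei, rest on few counts, and changes there were often not detectable at this depth.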
